A study of Homo sapiens with 42 samples.

Results

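The human mitochondrial genome encodes 37 genes, and all 37 were found in the count table of 58870 genes, by the rule that the symbol starts with MT-. They are the 13 protein genes, the 2 ribosomal RNA (rRNA) genes and the 22 transfer RNA (tRNA) genes. They are followed here through every group of the study, as a share of all counts, as the part each gene takes in that share, and as fold changes after treatment.

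The study treated a pair of human acute myeloid leukaemia cell lines with 100 nM VTP-50469, an inhibitor of menin, with 100 nM selumetinib, an inhibitor of the kinase MEK, or with both together. NOMO1 carries a rearrangement of KMT2A and OCI-AML3 carries mutant NPM1 (labelled NPM1c+); menin holds KMT2A complexes at their target genes, and MEK activates ERK. Each line had 7 groups of 3 libraries, 42 libraries in all: the combination at day 6, VTP-50469 at day 6, DMSO (the solvent) at day 6, the combination at day 3, VTP-50469 at day 3, selumetinib alone, and DMSO at day 3. The time of selumetinib alone is uncertain, since the labels' description gives 1 day but 2 of the 3 titles say day 3. The deposited counts also hold 3 columns named for selumetinib at day 6, with values equal to those of selumetinib columns used here. Selumetinib alone was set against DMSO day 3, the nearest DMSO group, and how long selumetinib was given in the combination is not stated. Every library comes from one of these established lines, and whether replicates were grown as separate cultures is not stated, so p-values measure only the spread between these libraries, which may be technical.

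Mitochondrial DNA is a circle read by its own polymerase, POLRMT, into long transcripts of each strand that carry many genes. The tRNAs between the other genes are cut out, which frees the messenger and ribosomal RNAs, and most of these then receive short tails of A. The rRNAs build the mitochondrial ribosome, whose only products are the 13 proteins: subunits of respiratory complex I (the MT-ND genes), of complex III (MT-CYB), of complex IV (MT-CO1, MT-CO2 and MT-CO3) and of ATP synthase (MT-ATP6 and MT-ATP8). Acute myeloid leukaemia cells are known for their reliance on mitochondrial respiration.

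The libraries were made from polyadenylated RNA, so the ends that receive the tail are shown first, as GENCODE 29 transcript sequence of build GRCh38 on the gene's own strand. Of the 13 protein genes, 6 end in an incomplete stop codon (T in 5 of them and TA in MT-ND1), which the first As of the tail complete. The last 24 bases of 5 genes are given 5' to 3', with the stop letters that the genome holds in capitals; MT-CO1, the messenger with the most counts, ends in AGA, which serves as a stop there, and MT-CO2 has a full TAG. Positions are those of GENCODE 29 too.
MT-ND1: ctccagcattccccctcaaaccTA
MT-ND4: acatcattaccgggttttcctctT
MT-CYB: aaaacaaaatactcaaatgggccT
MT-CO1: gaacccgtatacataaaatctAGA
MT-CO2: atagggcccgtatttaccctaTAG

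Both rRNA genes also hold runs of A inside the gene. The longest run of each, in capitals, is shown because the rRNA genes carry the main result in OCI-AML3 and were read through a selection for A; MT-RNR1 lies at chrM:648-1601 and MT-RNR2 at chrM:1671-3229, both on the + strand, and the stretches shown are chrM:966-1025 and chrM:2430-2489. Runs as long are not particular to the rRNA genes: the longest is 6 bases in MT-RNR1 and 7 in MT-RNR2, against 7 in MT-CO1 and 8 in MT-ND5. Whether reads began at these runs was not tested.
MT-RNR1: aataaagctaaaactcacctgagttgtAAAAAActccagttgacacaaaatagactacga
MT-RNR2: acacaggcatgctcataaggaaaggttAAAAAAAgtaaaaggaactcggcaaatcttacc

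Some genes lie across each other, which limits what a count can say. MT-ATP8 (chrM:8366-8572) and MT-ATP6 (chrM:8527-9207) share 46 bases, printed next, MT-ND4L (chrM:10470-10766) and MT-ND4 (chrM:10760-12137) share 7, and how such reads were counted is not given in the sources used here. The libraries carry no strand. Reads of MT-ND6 (chrM:14149-14673), the only protein gene on the - strand, therefore cannot be told apart from reads of the opposite strand's transcript.
MT-ATP8 and MT-ATP6 overlap: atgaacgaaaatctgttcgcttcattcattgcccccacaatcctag

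Total counts per library ran from 15264862 to 29168628, of which 443170 to 4668172 fell on the mitochondrial genes, so the exact 95% binomial interval of a library's share reaches at most 0.0172 percentage points to either side (counting error only). Symbols of nuclear copies of mitochondrial genes took 0.00426% to 0.0697% of all counts. The 3 DMSO day 3 libraries of NOMO1 stood apart from the other 18 of that line: they had the highest mitochondrial shares and fewer genes with a count (17749 to 18672, against 19315 to 22759). VTP-50469 day 3 replicate 1 of NOMO1 stood apart from its partners in the make-up of its mitochondrial counts. The lines bore their label's myeloid markers: 7 of 7 passed 5 CPM (counts scaled to a fixed library size) as a group mean in NOMO1, and 6 of 7 in OCI-AML3. Their sums ran from 4529 to 20360 CPM over the libraries of NOMO1 and from 1246 to 2772 CPM over those of OCI-AML3. Erythroid markers passed 5 CPM in neither line (0 of 6, with 3 at 0). Of other cell types' markers NOMO1 passed that level in 4 of 6 for T and NK cells (sums of 118 to 223 CPM, NKG7 up to 179), 2 of 5 for B cells (14.7 to 39.3), 4 of 5 for epithelium (43.9 to 332, KRT8 up to 285) and 1 of 5 for stroma (23.1 to 253, COL1A1). OCI-AML3 passed it in 1 of 6, 0 of 5, 1 of 5 and 1 of 5, with sums of at most 66.1 CPM. All sums are of single libraries, and the values of named genes are group means. The part of these markers in the results was not tested.

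In OCI-AML3 the combination gave the mitochondrial genes a larger share of all counts at both days. The share was 10.8, 14.9 and 11.1% in the 3 combination day 6 libraries, against 3.53, 2.48 and 3.71% in the 3 DMSO day 6 libraries. At day 3 it was 6.3, 5.97 and 6.2% with the combination, against 2.4, 2.66 and 2.52% with DMSO. Neither pair of groups overlapped: the means were 3.79-fold and 2.44-fold those of DMSO. Single drugs moved the share less. Selumetinib libraries had 3.6, 4.43 and 4.04%, all above DMSO day 3 (1.59-fold), though they overlapped DMSO day 6. With VTP-50469 the share was 5.09, 4.09 and 4.06% at day 6, above the DMSO day 6 libraries by 1.36-fold, and 2.48, 3.66 and 2.82% at day 3, where the groups overlapped. The DMSO day 6 libraries were themselves uneven, since replicate 2 lay near the day 3 level. No test was run on the shares, and in such bulk samples fewer cells of a kind and less RNA per cell cannot be told apart.

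In NOMO1 the share was set apart by the DMSO day 3 libraries. DMSO day 6 libraries held 3.68, 2.73 and 3.11%, against 17.6, 18 and 17.7% in DMSO day 3, a 0.179-fold ratio of day 6 over day 3 with no overlap. The combination and VTP-50469 at day 3, and selumetinib, whose time is uncertain, lay between these controls. They held 6.67, 5.6 and 6.73% with the combination, 4.11, 4.52 and 4.83% with VTP-50469 and 5.45, 6.68 and 5.29% with selumetinib. Each of these was below every DMSO day 3 library and above every DMSO day 6 library. At day 6 the groups overlapped, with 3.06, 3.35 and 4.0% for the combination and 3.14, 3.32 and 3.88% for VTP-50469, against the DMSO day 6 values above. The mean shares in DMSO day 6 were 3.17 ± 0.48% in NOMO1 and 3.24 ± 0.665% in OCI-AML3 (SD, n = 3 each).

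**Figure D1:**
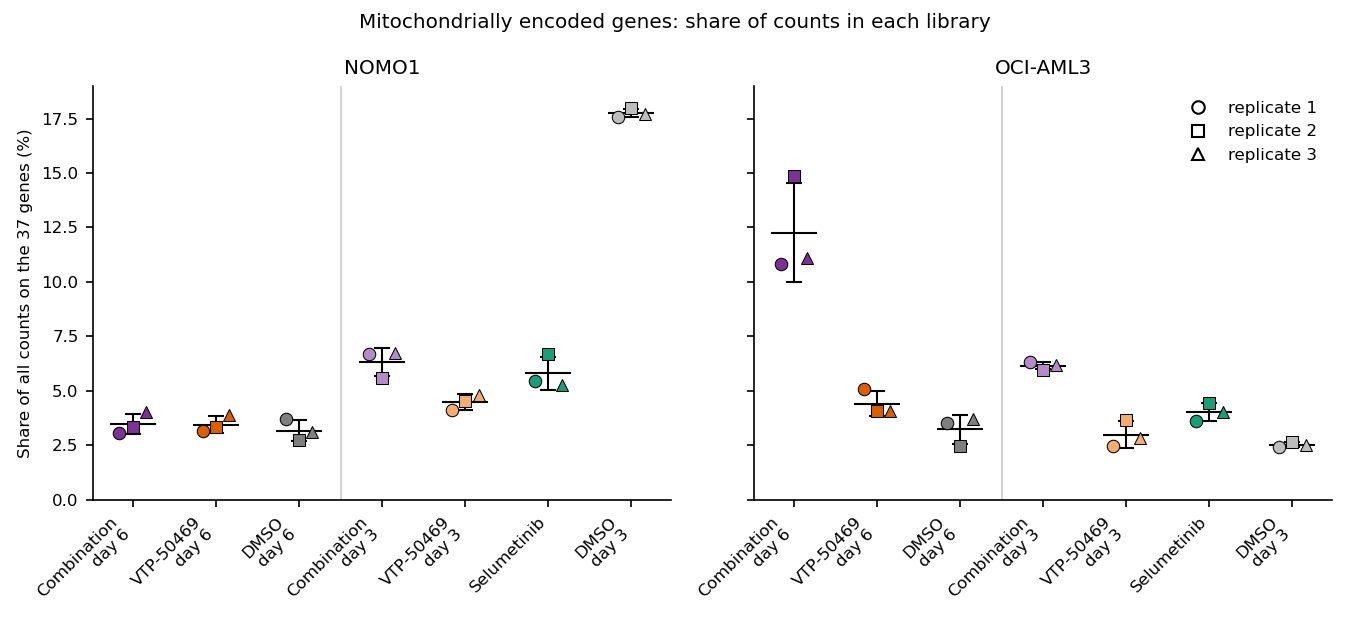
Share of all counts on the 37 mitochondrial genes (vertical axis, percent) in each of the 42 libraries, by group and line, with the mean and SD of 3 libraries. In OCI-AML3 the combination day 6 libraries (10.8 to 14.9%) lie above all others, and in NOMO1 the DMSO day 3 libraries (17.6 to 18%) do.

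Within the mitochondrial counts, protein genes took 63.8% to 81.6%, rRNA genes 17.4% to 35.7% and tRNA genes 0.415% to 1.23% over the 42 libraries. MT-CO1, the catalytic subunit of complex IV, and MT-RNR2, the rRNA of the large ribosomal subunit, held most. In OCI-AML3 DMSO day 3, MT-CO1 made up 22 ± 0.173% and MT-RNR2 16.5 ± 0.179% of mitochondrial counts (SD, n = 3). Per kilobase of gene the order differed. In CPM per kilobase of gene (RPKM) in that group, MT-CO3 came first at 3987 ± 74.8, followed by MT-CO1 at 3597 ± 164, MT-CO2 at 3035 ± 169, MT-ATP6 at 2845 ± 206 and MT-RNR2 at 2667 ± 110.3. The gaps between MT-CO2 and MT-ATP6 and between MT-ATP6 and MT-RNR2 were smaller than the sum of their SDs. At the low end stood MT-ND6 at 644 ± 85.7, MT-ND5 at 483 ± 23.6, MT-RNR1 at 329 ± 10.2 and MT-ATP8 at 185 ± 35.7. In OCI-AML3 combination day 6 the order changed: MT-RNR2 stood first at 23088 ± 4785 RPKM, and MT-RNR1, the rRNA of the small ribosomal subunit, reached 7257 ± 1537 RPKM, close to MT-ND4L at 7392 ± 2164. In NOMO1 combination day 6 MT-CO1 led at 7371 ± 1056 RPKM, ahead of MT-RNR2 at 5711 ± 662; in DMSO day 6 MT-RNR2 and MT-CO1 led, at 5191 ± 772 and 5085 ± 775 RPKM, within their SDs of each other.

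**Figure D2:**
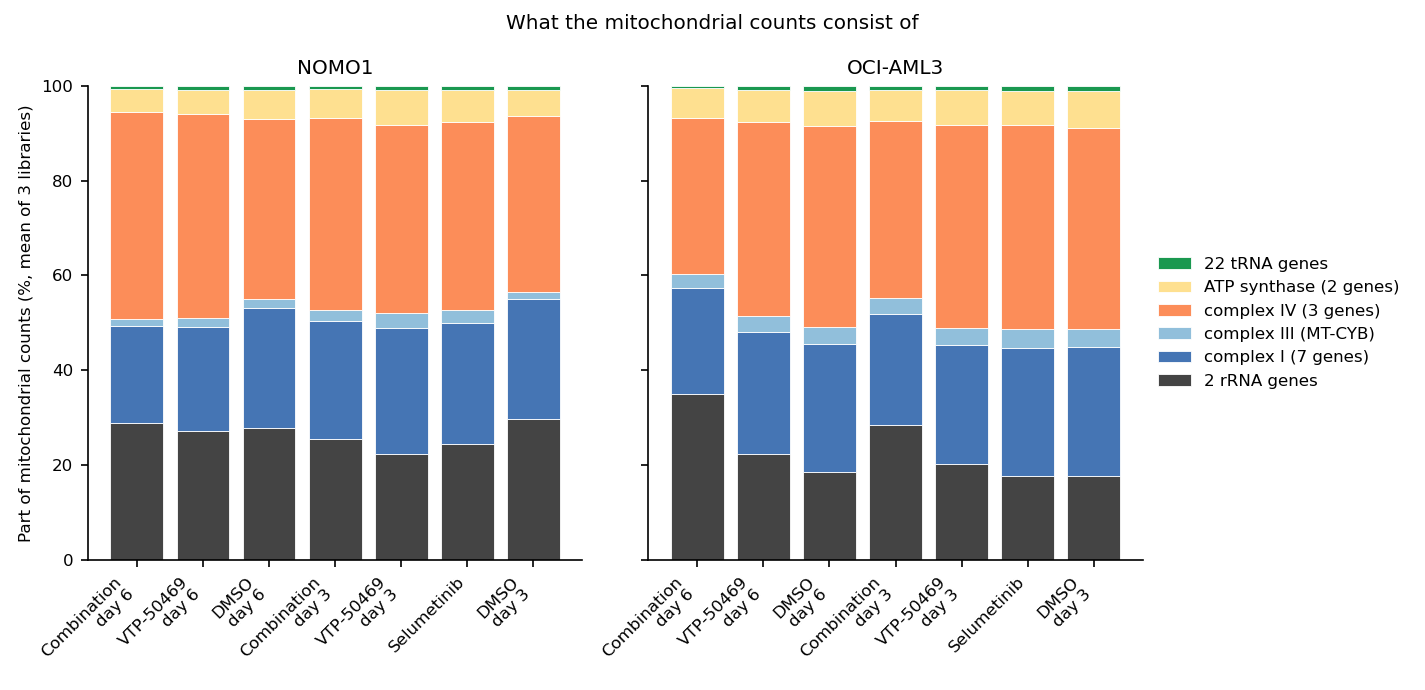
Mean part of the mitochondrial counts (vertical axis, percent, mean of 3 libraries) taken by the rRNA genes, the genes of complexes I, III and IV, the ATP synthase genes and the tRNA genes, in the 7 groups of each line. The rRNA part reaches 34.9% in OCI-AML3 combination day 6, against 18.5% in DMSO day 6; that is the one group of 14 in which complex IV (33% there) does not lead.

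Among the mitochondrial genes of OCI-AML3, the rRNA genes rose most with the combination. Both rRNA genes together were 33.9, 35.7 and 35.1% of mitochondrial counts in combination day 6 libraries, against 18.3, 18.9 and 18.4% in DMSO day 6. In combination day 3 they were 28.4, 29.5 and 27.4%, against 17.8, 17.4 and 17.8% in DMSO day 3. The combination and DMSO groups lay far apart, and VTP-50469 lay between them, at 21.6, 23.2 and 22% on day 6 and 20, 20.4 and 20.4% on day 3, in both cases above every DMSO library. Selumetinib libraries (17.4, 17.8 and 18%) overlapped DMSO day 3. Of the added share in combination day 6, the rRNA genes made up 40.9%, with 33.7% from MT-RNR2 and 7.26% from MT-RNR1, while MT-CO1 gave 16.9%.

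MT-RNR1 moved further than MT-RNR2. After scaling by TMM, the trimmed-mean factors of edgeR, MT-RNR1 had 5922, 9117 and 6444 CPM in combination day 6 libraries, against 391, 334 and 429 CPM in DMSO day 6. The log2 fold change was 4.22 ± 0.16 (SE), adjusted p = 1.3e-13, the largest of the 15 rRNA and protein genes in that comparison. In combination day 3 it had 2798, 2984 and 2873 CPM, against 313, 324 and 329 CPM in DMSO day 3 (log2 fold change 3.16 ± 0.15 (SE), adjusted p = 2.96e-12). MT-RNR1 was also the one rRNA or protein gene that passed the test with VTP-50469 at day 3, where it had 458, 590.2 and 518 CPM (log2 fold change 0.70 ± 0.14 (SE), adjusted p = 0.0026). No treated library of these groups overlapped its DMSO group. At day 6 VTP-50469 raised MT-RNR1 to 1034, 966 and 901 CPM (log2 fold change 1.33 ± 0.14 (SE), adjusted p = 5.68e-07).

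MT-RNR2 had 31367, 47294 and 33033 CPM in combination day 6, against 6176, 4494 and 6616 CPM in DMSO day 6 (log2 fold change 2.69 ± 0.18 (SE), adjusted p = 2.38e-09). In combination day 3 it had 13329, 13853 and 13463 CPM, against 4112, 4438 and 4250.5 CPM in DMSO day 3 (log2 fold change 1.67 ± 0.18 (SE), adjusted p = 5.56e-07). It rose by 0.63 ± 0.17 with VTP-50469 at day 6 (adjusted p = 0.00915). At day 3 with VTP-50469 the log2 fold change of MT-RNR2 was 0.36 ± 0.17, which did not pass the test (adjusted p = 0.239). The count of MT-RNR1 per count of MT-RNR2 was thus 0.189, 0.193 and 0.195 in combination day 6 and 0.103, 0.111 and 0.113 in VTP-50469 day 6, against 0.0633, 0.0743 and 0.0648 in DMSO day 6. At day 3 it was 0.21, 0.215 and 0.213 with the combination, 0.101, 0.0883 and 0.0991 with VTP-50469 and 0.0713, 0.0752 and 0.0793 with selumetinib, against 0.0762, 0.073 and 0.0773 with DMSO. The ratio separated every combination library of OCI-AML3 from every other library of the line, and the VTP-50469 libraries from the DMSO ones.

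**Figure D3:**
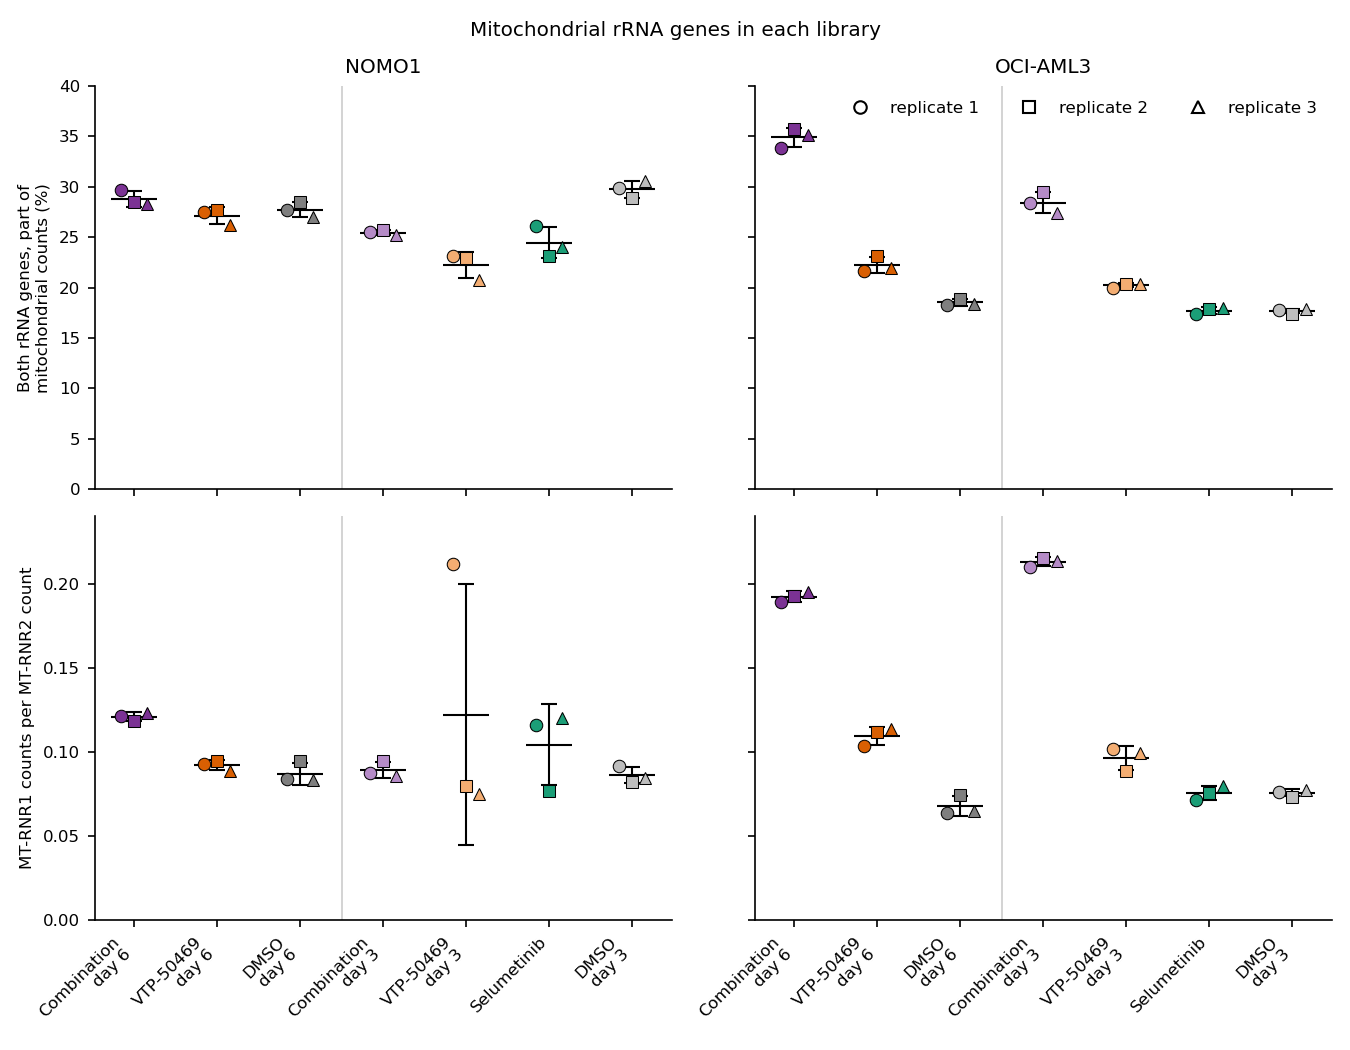
Upper panels, both rRNA genes as a part of the mitochondrial counts (percent); lower panels, counts of MT-RNR1 per count of MT-RNR2; each symbol is a library, and bars give the mean and SD of 3. In OCI-AML3 both measures are highest in the combination groups, and in NOMO1 the ratio of VTP-50469 day 3 replicate 1 (0.211) lies away from its partners (0.08 and 0.075).

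All 13 protein genes rose with the combination at day 6 in OCI-AML3. The log2 fold changes ran from 0.75 for MT-ND3 to 1.90 for MT-ND4, both subunits of complex I, with a median of 1.65. MT-ND4, which sits in the proton-pumping arm, had 9517, 14160.0 and 9813 CPM in combination day 6, against 3296, 2182 and 3520.1 CPM in DMSO day 6 (1.90 ± 0.21 (SE), adjusted p = 1.72e-06). MT-CO1 had 20170.0, 28215 and 20785 CPM, against 7854, 5514 and 8239.6 CPM (1.68 ± 0.17 (SE), adjusted p = 4.17e-07). MT-CYB, the one complex III subunit that mitochondria encode, had 3370.1, 4687 and 3279.8 CPM, against 1381, 890.4 and 1399.9 CPM (1.63 ± 0.18 (SE), adjusted p = 8.25e-07). The groups did not overlap in these 3 genes, one from each respiratory complex that holds mitochondrial subunits. MT-ND3 was the exception in size and in overlap, at 1058, 1075 and 671 CPM in combination day 6, against 472, 513 and 682 CPM in DMSO day 6 (0.75 ± 0.22 (SE), adjusted p = 0.00955), and it no longer passed without DMSO day 6 replicate 1 or without combination day 6 replicate 2. The counts of MT-ND6, which may hold reads of the opposite strand's transcript, moved with the rest (1.71 ± 0.20, where the median of the 12 other protein genes was 1.64). In all, 26 of the 35 mitochondrial genes tested rose with the combination at day 6 and none fell; over all 16384 genes tested, 23.1% rose and 26.5% fell. The median log2 fold change was 1.62 over the 35 and 0.0022 over all genes.

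The remaining protein genes rose as well, complex by complex. In complex I, whose mitochondrial subunits form its membrane arm, MT-ND1 had 4156, 5672 and 4085 CPM in combination day 6 libraries, against 1875, 1212 and 1905 CPM in DMSO day 6 (log2 fold change 1.48 ± 0.17). MT-ND2 had 3678, 4905 and 3616 CPM, against 1665, 1137 and 1754 CPM (1.42 ± 0.15), and MT-ND5 had 3434, 4916 and 3675 CPM, against 1278, 849 and 1269.5 CPM (1.82 ± 0.17). The short MT-ND4L, which shares bases with MT-ND4, rose by 1.73 ± 0.24. In complex IV, which passes electrons to oxygen, MT-CO2, which takes electrons from cytochrome c, had 7098, 10033 and 7167 CPM, against 2908, 2076 and 3138 CPM (1.58 ± 0.18). MT-CO3 had 9803, 12905 and 9136 CPM, against 4369.8, 3359.6 and 4686 CPM (1.36 ± 0.14), the smallest rise of the 3. Of the ATP synthase subunits, both in its membrane portion, MT-ATP6 rose by 1.65 ± 0.18 and MT-ATP8 by 1.74 ± 0.19. In every gene named here but MT-ND3 the lowest combination library lay above the highest DMSO library. As a part of mitochondrial counts the complexes nevertheless shrank beside the rRNA: complex IV took 33 ± 0.638% in combination day 6, against 42.4 ± 0.502% in DMSO day 6, and complex I took 22.4 ± 0.45%, against 26.9 ± 0.539% (SD, n = 3 each).

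At day 3 the combination raised 12 of the 13 protein genes in OCI-AML3. Log2 fold changes ran from 0.51 (MT-ND3, adjusted p = 0.0641, not called) to 1.07 (MT-ND4). That call was missed in the main edgeR fit, with TMM factors and all 21 libraries of the line. MT-ND3 passed with DESeq2 (0.54, adjusted p = 0.0252). It also passed in edgeR with library totals (adjusted p = 0.023), with a filter of at least 1 CPM (adjusted p = 0.0471) and with only the groups compared in the fit (adjusted p = 0.0041). MT-CO1 had 11245, 11458 and 12186 CPM with the combination, against 5502, 5977 and 5599 CPM with DMSO (1.03 ± 0.17 (SE), adjusted p = 8.03e-05). With the rRNA genes and 7 tRNA genes, 21 of 35 mitochondrial genes rose and none fell, where 22.3% of all genes rose and 25.8% fell. Against DMSO day 6 in place of day 3, combination day 3 had 16 mitochondrial genes higher, where 22.3% of all genes were. MT-TP was called lower there, and the share of all genes lower in that comparison is not given here. The median over the 35 was 0.97 against DMSO day 3 and 0.60 against DMSO day 6, beside 0.029 and 0.031 over all genes.

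Selumetinib alone raised 9 protein genes of OCI-AML3, both rRNA genes and 4 tRNA genes, 15 of 35 in all, where 11.7% of all genes rose. The protein genes ran from 0.35 (MT-ATP8) to 0.69 (MT-CYB) in log2 fold change, and MT-ATP8, MT-ATP6, MT-ND3 and MT-ND4L did not pass the test. MT-RNR1 rose by 0.62 ± 0.14 and MT-RNR2 by 0.62 ± 0.17, like MT-CO1 at 0.65 ± 0.17, so the fold was even over both kinds of gene. The 15 calls became 8 without DMSO day 3 replicate 1 or without selumetinib replicate 2, and MT-RNR2 was then not called. With 1 library left out, MT-ND4 lost its call in 5 of 6 cases and MT-ND6 in 4 of 6. Both also lost it in edgeR with no filter (adjusted p = 0.0686 and 0.0847). The median over the 35 was 0.61, and 0.27 against DMSO day 6, beside 0.024 and 0.03 over all genes. Set against DMSO day 6, no mitochondrial gene was higher with selumetinib and 1 (MT-TR) was lower, where 15.5% of all genes were lower. VTP-50469 raised only MT-RNR1 of 35 at day 3, where 6.49% of all genes rose. Against DMSO day 6, it had 1 gene lower (MT-TL1), where 3.83% of all genes were lower, and MT-RNR1 did not pass (adjusted p = 0.0552).

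VTP-50469 at day 6 raised 3 of 35 mitochondrial genes in OCI-AML3, where 18.8% of all genes rose: MT-RNR1, MT-RNR2 and MT-TL2. MT-TL2 rests on 7, 12 and 9 counts with VTP-50469, against 0, 1 and 0 with DMSO. The main edgeR fit called none of the 13 protein genes, with log2 fold changes from 0.03 (MT-ND3) to 0.55 (MT-ND4). MT-CO1 and MT-ND4 lay above DMSO day 6 in each library without passing that test (adjusted p = 0.0538 and 0.0505). DESeq2 called both, MT-CO1 at 0.43 (adjusted p = 0.0447) and MT-ND4 at 0.53 (adjusted p = 0.0318), as did edgeR with library totals or with a filter of at least 1 CPM. MT-RNR2 lost its call with only the groups compared in the fit (adjusted p = 0.0545). Without DMSO day 6 replicate 3, MT-CO1 and MT-ND4 passed too, and 5 genes were called. The median over the 35 was 0.28, beside 0.0051 over all genes.

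The combination was also above each drug alone in OCI-AML3. Over VTP-50469 it raised 22 of 35 mitochondrial genes at day 3 (18.2% of all genes rose) and 23 of 35 at day 6 (16.7% of all genes rose), including every protein gene at both days. The log2 fold changes of the protein genes ran from 0.70 to 1.07 at day 3 and from 0.72 to 1.51 at day 6. MT-ND3 no longer passed at day 3 without VTP-50469 replicate 1, combination replicate 1 or combination replicate 3, nor at day 6 without VTP-50469 replicate 2 or 3, or combination replicate 1 or 2. MT-RNR1 rose over VTP-50469 by 2.47 ± 0.15 at day 3 and 2.89 ± 0.15 at day 6. Over selumetinib, combination day 3 raised 3 of 35 genes, where 11.2% of all genes rose: MT-RNR1 (2.55 ± 0.15), MT-RNR2 (1.05 ± 0.17) and MT-ATP8 (0.60 ± 0.19). The other protein genes did not pass in this fit, from 0.14 for MT-ND3 up. With only the groups compared in the fit, 12 genes were called, among them MT-ND4, MT-ND6, MT-CYB, MT-CO1 and MT-CO3 (adjusted p of 0.000652 to 0.0349), and DESeq2 called 5. The shares of all genes called in these other fits are not given here. The interaction at day 3 is the combination's effect beyond the sum of both single effects on the log2 scale. Its selumetinib term is of uncertain time, so a difference of time cannot be told apart from an interaction. The interaction was called for MT-RNR1 alone of 35 (1.85 ± 0.20 (SE), adjusted p = 1.11e-05), where 2.67% of all genes were called higher. That count was 3, MT-RNR2 among them, without VTP-50469 day 3 replicate 2. MT-RNR2 also passed with DESeq2 (0.71, adjusted p = 0.0382) and with only the groups compared (0.73, adjusted p = 0.0088).

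Over time, combination day 6 was above combination day 3 for 18 of 35 genes in OCI-AML3, where 8.44% of all genes rose, among them 12 protein genes, MT-RNR1 (1.31 ± 0.14) and MT-RNR2 (1.46 ± 0.17). VTP-50469 day 6 was above day 3 for 12 of 35, where 9.8% of all genes rose, with MT-RNR1 at 0.89 ± 0.14. That VTP-50469 count depended on single libraries: it was 2 without VTP-50469 day 3 replicate 1 or replicate 3, and 3 without day 6 replicate 1. In DMSO, edgeR called 0 of 35 mitochondrial genes between day 6 and day 3, and 0% of all genes. In edgeR 7 mitochondrial genes had an unadjusted p under 0.05, and the share of all genes at that level is not given here. DESeq2 also called 0 mitochondrial genes.

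**Figure D4:**
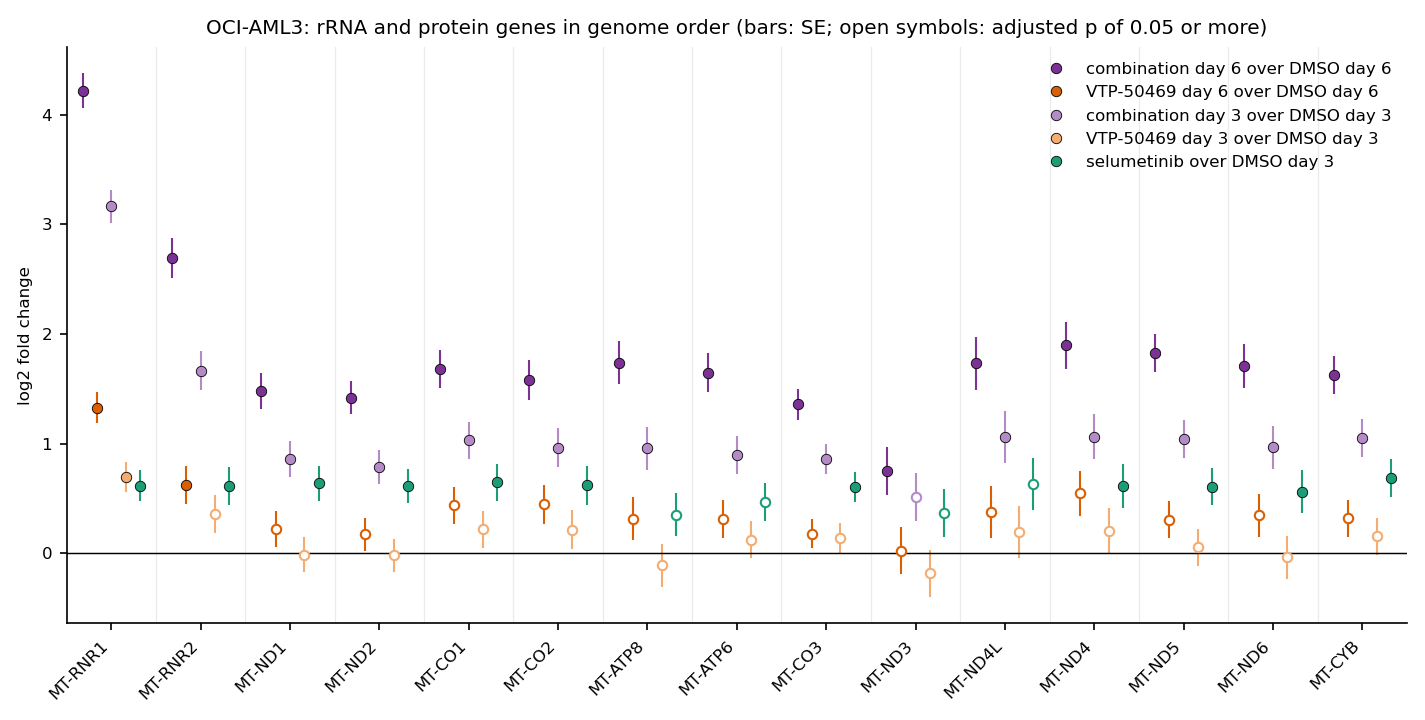
Log2 fold changes (vertical axis, with SE) of the 2 rRNA and 13 protein genes of OCI-AML3, in genome order, for each treated group over DMSO; open symbols did not pass an adjusted p of 0.05. The combination day 6 values reach 4.22 for MT-RNR1 and 2.69 for MT-RNR2, above the protein genes (0.75 to 1.9).

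The tRNA genes held few counts, as short RNAs do in such libraries. MT-TC, MT-TN and MT-TP made up 44.3%, 31.2% and 13.6% of tRNA counts over all libraries, and all 3 lie on the - strand; without strand, their counts may hold reads of the + strand transcript across them. Their sequences are shown as those behind most tRNA counts (chrM:5761-5826, chrM:5657-5729 and chrM:15956-16023).
MT-TC: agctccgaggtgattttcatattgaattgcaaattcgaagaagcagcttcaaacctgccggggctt
MT-TN: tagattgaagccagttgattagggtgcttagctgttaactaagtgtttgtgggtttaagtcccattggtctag
MT-TP: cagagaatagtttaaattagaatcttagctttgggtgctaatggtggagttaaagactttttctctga

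In OCI-AML3 20 tRNA genes were tested. With the combination 11 rose at day 6, where 23.1% of all genes rose, and 7 at day 3, where 22.3% did. MT-TC, which decodes cysteine, rose by 0.65 ± 0.18 at day 6 and 0.82 ± 0.18 at day 3 on the log2 scale. MT-TL1, a leucine tRNA that directly follows MT-RNR2, rose by 1.49 ± 0.14 and 0.97 ± 0.14. The tRNA part of mitochondrial counts was nevertheless smaller with the combination, at 0.582, 0.475 and 0.415% on day 6, against 1.01, 1.23 and 1.07% with DMSO. MT-TF and MT-TA were not tested in OCI-AML3 for lack of counts, and in NOMO1 the same 2 with MT-TI, MT-TQ, MT-TK and MT-TL2.

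In NOMO1 the DMSO groups of the 2 days differed more than any treated group did from DMSO day 6. DMSO day 6 was below DMSO day 3 for 30 of the 31 mitochondrial genes tested, where 22.3% of all genes were lower. MT-CO1 had 8607, 6495 and 7230.0 CPM at day 6, against 51143, 50230.0 and 49923 CPM at day 3 (-2.76 ± 0.19 (SE), adjusted p = 2.46e-09). MT-RNR2 had 8915, 6849.9 and 7291 CPM, against 57593, 57932 and 59637 CPM (-2.93 ± 0.11 (SE), adjusted p = 1.18e-16). The fall was even: the 15 rRNA and protein genes lay between -2.97 (MT-ATP8) and -2.57 (MT-ND3), and 15 of 16 tRNA genes fell. The median over the 31 was -2.82, beside 0.03 over all genes. The rRNA part of mitochondrial counts stayed close, at 27.7, 28.5 and 27% on day 6, against 29.9, 28.9 and 30.6% on day 3.

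The choice of control therefore set the direction in NOMO1 for the day 3 treatments and for selumetinib, whose time is uncertain. Against DMSO day 3, 28 of 31 genes fell with the combination (27.5% of all genes fell), 28 with VTP-50469 (22.7%) and 28 with selumetinib (25.2%). The medians over the 31 were -1.75, -2.31 and -1.99 in that order, beside 0.023, 0.067 and 0.017 over all genes. Against DMSO day 6, 24 rose with the combination (20.9% of all genes rose), 11 with VTP-50469 (12.8%) and 19 with selumetinib (13.1%), with medians of 1.06, 0.59 and 0.91. MT-CYB was the protein gene nearest to DMSO day 3 and furthest above DMSO day 6 in all 3 groups. It had 1450.0, 1196 and 1475 CPM with the combination, 1826, 1041 and 1217 CPM with VTP-50469 and 1038, 1419 and 1872 CPM with selumetinib. DMSO libraries had 598, 433 and 529.7 CPM at day 6 and 3117, 3552 and 3199.8 CPM at day 3. The groups were thus apart from both controls, with log2 fold changes of 1.40 ± 0.23, 1.39 ± 0.23 and 1.47 ± 0.23 over DMSO day 6 and -1.26 ± 0.23, -1.27 ± 0.23 and -1.19 ± 0.23 over DMSO day 3, in the same order of treatments. The VTP-50469 value over DMSO day 3 was -1.54 without its replicate 1. MT-ND5 of complex I stood at the other end, at 0.79, 0.14 and 0.54 over DMSO day 6 and -1.98, -2.63 and -2.23 over DMSO day 3. The treated groups share both controls, so these values are not independent of each other.

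Between treated groups of NOMO1 at day 3, the combination was above VTP-50469 for 10 of 31 genes, where 15.9% of all genes rose, among them MT-RNR2 (0.75 ± 0.10) and MT-ND6 (0.67 ± 0.15). Against selumetinib, edgeR called 0 of 31 genes, with 3 at an unadjusted p under 0.05 and 0 called by DESeq2, where 20.1% of all genes were called in either direction. Without selumetinib replicate 2 it called 2 genes, and without combination day 3 replicate 2 it called 1. The interaction at day 3 was called higher for 28 of 31 genes with DMSO day 3 as control (15.3% of all genes) and lower for 7 with DMSO day 6 (5.97% of all genes). As in OCI-AML3, its selumetinib term is of uncertain time. VTP-50469 day 3 replicate 1 touches several of these values. Its ratio of MT-RNR1 to MT-RNR2 was 0.211, against 0.08 and 0.075 in its partners, and its complex IV genes were 32% of mitochondrial counts, against 42.9% and 44.1%. Without it, MT-RNR1 fell by 2.84 against DMSO day 3 in place of 2.32, and the combination was above VTP-50469 for 12 genes, with MT-RNR1 now called (0.87, against 0.35 with all libraries) and MT-CO1 no longer called. The 28 genes lower than in DMSO day 3 became 29 of 32 without it.

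At day 6 the mitochondrial genes of NOMO1 changed little against DMSO day 6. With the combination 3 of 31 rose, where 27.3% of all genes did, and 2 fell (the tRNA genes MT-TY and MT-TT), where 28.2% of all genes did. MT-CO1 had 10351, 11116 and 13506 CPM with the combination, against 8607, 6495 and 7230.0 CPM with DMSO (0.65 ± 0.18 (SE), adjusted p = 0.00543). MT-RNR1 had 1019, 1024 and 1271 CPM, against 744, 646 and 604 CPM (0.73 ± 0.25 (SE), adjusted p = 0.0192). In both genes every combination library lay above every DMSO library, while MT-RNR2 overlapped (0.25 ± 0.10 (SE), adjusted p = 0.0419). The complex I genes MT-ND2 (-0.53 ± 0.22) and MT-ND3 (-0.59 ± 0.24) were lower without passing in the main edgeR fit. MT-ND3 did pass with DESeq2 (-0.56, adjusted p = 0.0444), with only the groups compared in the fit (adjusted p = 0.00962), with library totals (adjusted p = 0.0228) and without DMSO day 6 replicate 2. MT-RNR2 lost its call with library totals (0.14, adjusted p = 0.298), with no filter (adjusted p = 0.108), with only the groups compared (adjusted p = 0.0956) and with a replicate block (adjusted p = 0.0547). With VTP-50469 2 of 31 genes rose (23.7% of all genes rose), MT-CO1 and MT-TG, and 1 fell (25.1% of all genes fell), MT-TY. MT-CO1 had 9854, 10239 and 11997 CPM with VTP-50469 (0.52 ± 0.18 (SE), adjusted p = 0.0229). That call was lost with library totals (0.46, adjusted p = 0.056) and with no filter (0.51, adjusted p = 0.0748). Medians over the 31 genes were -0.04 with the combination and -0.08 with VTP-50469.

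MT-CO1 thus took a larger part of the mitochondrial counts in NOMO1 at day 6, at 32.7 ± 0.176% with the combination and 31.2 ± 0.402% with VTP-50469, against 24.7 ± 0.0253% with DMSO (SD, n = 3 each). MT-CO3, another core subunit of complex IV, took a smaller one, at 4.69 ± 0.12% and 5.06 ± 0.141%, against 6.36 ± 0.0854%. In OCI-AML3 the part of MT-CO1 was 18.2 ± 0.325% with the combination at day 6, against 21.7 ± 0.188% with DMSO. The NOMO1 day 6 counts depended on single libraries. With the combination, 1 gene rose and 5 fell without DMSO day 6 replicate 2, 1 rose and 2 fell without DMSO day 6 replicate 3, and 2 rose and 5 fell without combination day 6 replicate 3. MT-RNR1 and MT-RNR2 lost their calls in each of these 3 cases, and MT-CO1 kept its call. With VTP-50469, 1 gene was called, and MT-CO1 was not, without DMSO day 6 replicate 2, without DMSO day 6 replicate 3 or without VTP-50469 day 6 replicate 3. The combination was below VTP-50469 at day 6 for 3 of 31 genes, all tRNAs (MT-TC, MT-TG and MT-TT), where 15.2% of all genes were lower. That count was 1 without any one of the VTP-50469 day 6 libraries and 0 without combination day 6 replicate 1 or 2.

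Over time in NOMO1, combination day 6 was below combination day 3 for 23 of 31 genes, where 19.7% of all genes were lower. VTP-50469 day 6 was below day 3 for 13 of 31, where 21.3% of all genes were lower. MT-TG was called higher with VTP-50469, and the share of all genes higher there is not given here. With the combination, MT-ND3 (-1.73 ± 0.25) fell most among the protein genes, and MT-CO1 (-0.42 ± 0.18) did not pass, though it did with library totals (adjusted p = 0.0464) and with only the groups compared (adjusted p = 0.0291). With VTP-50469, MT-ND2 (-1.45 ± 0.23) fell most.

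**Figure D5:**
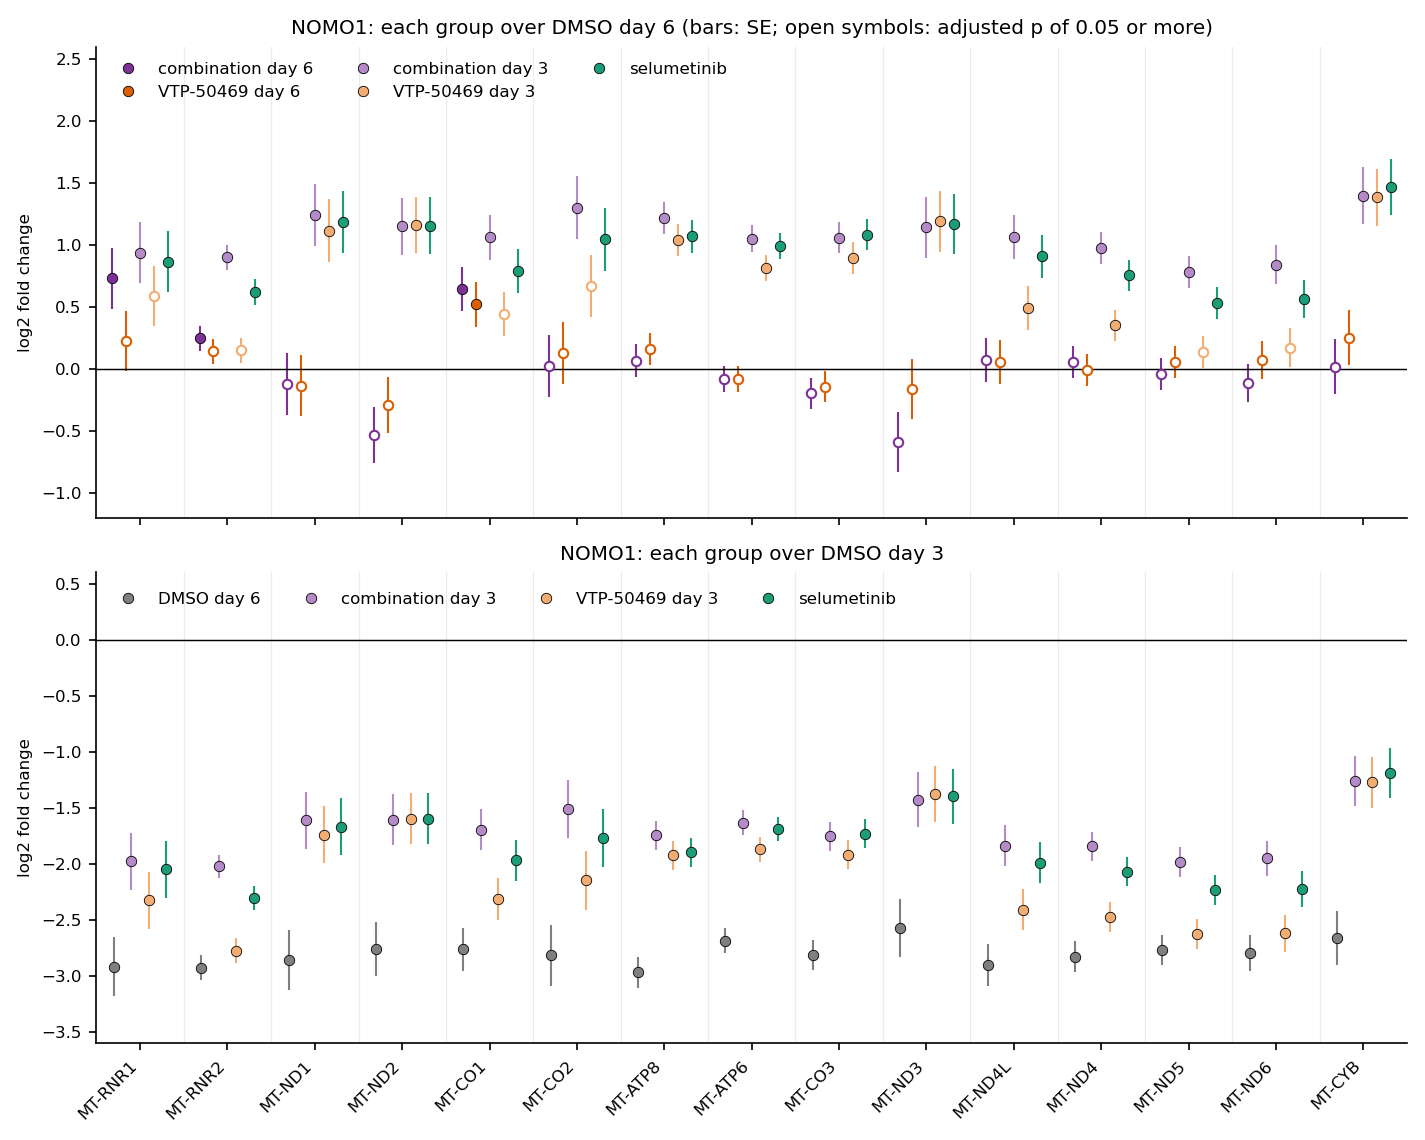
Log2 fold changes (vertical axis, with SE) of the 2 rRNA and 13 protein genes of NOMO1, in genome order: upper panel over DMSO day 6, lower panel over DMSO day 3; open symbols did not pass an adjusted p of 0.05. The day 3 treatments and selumetinib, whose time is uncertain, lie at or above 0 in the upper panel and below 0 in the lower one. At day 6 MT-CO1, MT-RNR1 and MT-RNR2 are the genes that passed with all libraries in edgeR, the call of MT-RNR2 being lost in other fits.

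Between the lines in DMSO day 6, fitted over all 42 libraries, NOMO1 was higher for 8 of 35 mitochondrial genes, where 32.7% of all genes were, and lower for 12, where 28.6% of all genes were. Higher were MT-RNR1 (1.17 ± 0.21), MT-RNR2 (0.80 ± 0.15), MT-ND6 (0.82 ± 0.18), MT-ND5 (0.77 ± 0.16), MT-ATP8, MT-ND4, MT-CO1 and MT-TP. Lower were MT-CYB (-0.85 ± 0.20), MT-CO3 (-0.73 ± 0.14), MT-ND2, MT-ND1 and 8 tRNA genes. The lines thus had close shares of mitochondrial counts, and a different make-up: the rRNA part was 27.7 ± 0.758% in NOMO1 and 18.5 ± 0.334% in OCI-AML3 (SD, n = 3 each). Leaving out single libraries gave 13 to 17 called genes in place of 20, with 13 without NOMO1 DMSO day 6 replicate 1. MT-CO1 and MT-ND4 were then not called, nor without OCI-AML3 DMSO day 6 replicate 2, and MT-CO1 also not without NOMO1 DMSO day 6 replicate 3. Both also lost their calls with library totals (0.16 for MT-CO1 and 0.17 for MT-ND4) and with only the groups compared.

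The response to the combination at day 6 differed between the lines. The NOMO1 effect minus the OCI-AML3 effect was called lower for 23 of 35 genes, where 16.3% of all genes were, and for all 15 rRNA and protein genes. It was -3.43 ± 0.30 (SE), adjusted p = 1.2e-10 for MT-RNR1, -2.39 ± 0.21 (SE), adjusted p = 5.28e-11 for MT-RNR2 and -0.98 ± 0.25 (SE), adjusted p = 0.00268 for MT-CO1, the smallest of the protein genes. For VTP-50469 at day 6 the difference was called for 2 of 35 genes, where 33.4% of all genes were called in either direction: MT-RNR1 (-1.03 ± 0.29 (SE), adjusted p = 0.00545) and the tRNA gene MT-TN (0.87 ± 0.34). MT-RNR1 kept its call with each library left out, while the count was 1 without OCI-AML3 DMSO replicate 1 or 3, OCI-AML3 VTP-50469 replicate 2 or 3, NOMO1 DMSO replicate 2, or NOMO1 VTP-50469 replicate 2 or 3. The protein genes ran from -0.49 (MT-ND4) to 0.15 (MT-CO1) and none passed in this fit. MT-ND4 passed with library totals (-0.65, adjusted p = 0.0447) and, with MT-CO3, with no filter; MT-RNR2 passed in both as well. For selumetinib the difference was called lower for 26 of 35 genes, where 13.6% of all genes were; this rests on the NOMO1 DMSO day 3 libraries, which stood apart.

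With the combination in OCI-AML3, where the mitochondrial RNAs were higher, nuclear genes of mitochondrial RNA processing were mostly lower. More of the transcription genes fell than rose there. Over all genes, 23.1% rose and 26.5% fell with the combination at day 6 in OCI-AML3, and 22.3% and 25.8% at day 3. Of 9 genes of mitochondrial transcription, 1 rose and 5 fell with the combination at day 6 in OCI-AML3 (median log2 fold change -0.44), and 3 rose and 4 fell at day 3 (-0.36), beside medians of 0.0022 and 0.029 over all genes. TFB2M, a factor that opens the promoters, changed by -1.33 ± 0.13 at day 6, POLRMT by -0.77 ± 0.08 and TFAM, which binds and packs the DNA, by -0.77 ± 0.08, all lower; MTERF1, a termination factor, rose by 0.75 ± 0.13. Of 29 genes of mitochondrial RNA processing and stability, 18 fell at day 6 (median -0.42) and 21 at day 3 (median -0.52), and 0 rose. LRPPRC, which stabilises mitochondrial messengers, averaged 196 CPM with the combination and 589.5 CPM with DMSO at day 6 (-1.59 ± 0.08). PNPT1, part of the enzyme that degrades mitochondrial RNA, changed by -1.0 ± 0.11, and PUS1, which modifies tRNAs, by -1.47 ± 0.14.

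In NOMO1 at day 6 most genes of both lists were lower while the mitochondrial RNAs changed little. Over all genes, 27.3% rose and 28.2% fell with the combination, and 23.7% and 25.1% with VTP-50469. With the combination, 9 of 9 transcription genes fell (median -0.99) and 24 of 29 processing genes fell and 1 rose (median -0.89). With VTP-50469, 5 of 9 and 21 of 29 fell and 0 and 1 rose (medians -0.41 and -0.63), beside medians of -0.0003 and -0.01 over all genes with the combination and VTP-50469. LRPPRC averaged 95.7 CPM with the combination and 363 CPM with DMSO (-1.92 ± 0.09), and PNPT1 changed by -2.74 ± 0.14. TFB2M changed by -1.65 ± 0.19 and TFAM by -1.07 ± 0.09. Of 13 genes of mitochondrial DNA maintenance, 2 rose and 7 fell in NOMO1 with the combination at day 6, and 3 rose and 6 fell in OCI-AML3. In OCI-AML3, 23.1% of all genes rose and 26.5% fell, so the rising share there was that of all genes. TWNK, the helicase, changed by -2.89 ± 0.16 in NOMO1 and -0.72 ± 0.12 in OCI-AML3. Of 12 translation factors tested, 1 rose and 8 fell in NOMO1, and 1 rose and 7 fell in OCI-AML3, with TUFM, the elongation factor, at -0.99 ± 0.07 and -0.59 ± 0.07. Of the regulators of mitochondrial genes, 3 of 9 rose and 2 fell in NOMO1, and 1 of 8 rose and 4 fell in OCI-AML3. Among them PPRC1 fell (-1.98 ± 0.12 and -0.74 ± 0.09) and TFEB, a regulator of lysosomal genes, rose (1.24 ± 0.15 and 0.92 ± 0.14) in NOMO1 and OCI-AML3.

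The nuclear partners of the 13 proteins gave a different count. Of 76 nuclear subunits of complexes I to V tested in OCI-AML3, 13 rose and 22 fell with the combination at day 6 (median log2 fold change -0.05), where 23.1% and 26.5% of all genes did, so the falling share was near that of all genes, when all 13 mitochondrial subunits rose. At day 3, 5 rose and 33 fell (median -0.25), where 22.3% and 25.8% of all genes did. With VTP-50469 at day 6, 41 of 76 rose and 3 fell (median 0.35), where 18.8% and 16% of all genes did. In that comparison the main edgeR fit called no mitochondrial subunit, while DESeq2 and some other edgeR settings called MT-CO1 and MT-ND4. NDUFA8 of complex I changed by 2.03 ± 0.11 and UQCRQ of complex III by 0.76 ± 0.12, both higher. In NOMO1, 1 rose and 59 fell with the combination at day 6 (median -0.51), where 27.3% and 28.2% of all genes did, with ATP5MC1 of ATP synthase at -2.28 ± 0.20 and NDUFAB1 of complex I at -1.57 ± 0.11. Between its controls, 9 rose and 52 fell in DMSO day 6 against day 3 (median -0.57), where 28.8% and 22.3% of all genes did, with the mitochondrial subunits lower too.

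Other values also differed between groups, though not always along with the mitochondrial share. In OCI-AML3 the combination day 6 libraries had 16761, 16742 and 17438 genes with a count, against 20208, 20280 and 20482 in DMSO day 6. MALAT1, a nuclear RNA, was at 125, 146 and 222 CPM of total counts, against 47.4, 39.7 and 46.7, and NEAT1, another nuclear RNA, at 119, 113 and 118, against 61.9, 45 and 59.3. In NOMO1, DMSO day 6 was below DMSO day 3 in MALAT1 (-1.2 ± 0.17) and NEAT1 (-0.95 ± 0.20), and the TMM factors of DMSO day 3 were 0.828 to 0.837. VTP-50469 day 3 of NOMO1, whose share was below that of DMSO day 3, overlapped it in both RNAs. MALAT1 was at 50.8, 44.5 and 44.9 CPM of total counts there, against 46.3, 49.8 and 59.3 in DMSO day 3. NEAT1 was at 57.5, 70 and 73.5, against 64.8, 57.1 and 64.5. The part of these differences in the results was not tested.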

How the data were processed

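RNA-seq of 42 libraries was made from polyadenylated RNA with unstranded paired-end reads, per the labels' protocols. The submitters' processing notes name build hg38, the aligner STAR 2.11a, Subread 2.0.6 with featureCounts, FastQC 0.11.9, MultiQC 1.14 and DESeq2 1.44.0. The deposited values are raw counts per gene, named after GENCODE 30 symbols in the file header. The 3 columns named for selumetinib at day 6, equal in value to selumetinib columns that were used, match no sample's labels and were not used. Of 58870 genes 1 was dropped for an empty cell. CPM, shares and RPKM (by gene length in GENCODE 29) were computed here, and sequences were read from the GENCODE 29 transcripts of GRCh38. Genes were filtered with filterByExpr and scaled by TMM, and tested with the quasi-likelihood test of edgeR 4.0.16 in R 4.3.3, on the 21 libraries of a line (16384 genes in OCI-AML3, 16561 in NOMO1) or, between lines, on all 42 (18707 genes). Adjusted p-values are Benjamini-Hochberg over all genes tested, called under 0.05. The scripts were tested on simulated data, with VTP-50469 day 6 against DMSO day 6 as the comparison. Of 1.5-fold changes 49.3% were found in OCI-AML3 and 47.8% in NOMO1, and of 2-fold changes 80.6% and 88.1%. A missing call therefore does not show that a small change is absent. False calls were 4.43% and 8.33% of all calls, the NOMO1 value lying above the 0.05 used for calls. The simulation changed few genes, each on its own, while in the data many genes were called and the mitochondrial genes often moved together. These rates may thus not hold for the real comparisons. DESeq2 1.42.0, other scalings, filters and controls, a replicate block and left-out libraries were tried as alternatives. Counts from other fits or left-out libraries, and counts at an unadjusted p, come without the share of all genes. All rRNA and protein genes are described by name, tRNA genes by their part, and nuclear lists by counts, naming at most 4 called genes by smallest adjusted p in each. The members and lists were chosen with earlier results of these data known. Total counts of 15264862 to 29168628 set the precision, and intervals cover counting error only.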

Additional observations from a re-analysis of the deposited data

Results flagged for a closer look

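The effect of a treatment on the mitochondrial genes differed between the lines by the test of the difference itself, edgeR's quasi-likelihood test of the NOMO1 effect minus the OCI-AML3 effect over all 42 libraries. For the combination at day 6 it was called for 23 of 35 genes, all lower in NOMO1, where 16.3% of all genes were called lower. The differences were -3.43 for MT-RNR1, -2.39 for MT-RNR2, -1.78 for MT-ND4, -1.77 for MT-ND6, -1.55 for MT-CYB, -1.50 for MT-CO3, -1.28 for MT-ND3 and -0.98 for MT-CO1 on the log2 scale. In OCI-AML3 each of these genes rose with the combination, and in NOMO1 MT-CO1 and both rRNA genes were the ones called.

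For selumetinib it was called for 26 of 35 genes, also all lower in NOMO1, where 13.6% of all genes were called lower. The differences were -2.61 for MT-RNR1, -2.87 for MT-RNR2, -2.63 for MT-ND4, -2.74 for MT-ND6, -1.83 for MT-CYB, -2.28 for MT-CO3, -1.72 for MT-ND3 and -2.57 for MT-CO1. All of them rest on the NOMO1 DMSO day 3 libraries, whose mitochondrial share was 17.6 to 18% where the other NOMO1 libraries had 2.73 to 6.73%. For VTP-50469 at day 6 it was called for 2 of 35 genes, where 33.4% of all genes were called in either direction. The difference for MT-RNR1 was -1.03. Groups of 3 libraries are too small for a search for single outlying libraries.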

How the results depend on the processing

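Changing the factors to RLE or the filter to at least 1 CPM in 3 libraries moved none of 28 counts by over 1.5 times. The control mattered most. With DMSO day 6 in place of day 3, the counts in OCI-AML3 were 1 lower for VTP-50469 day 3, 1 lower for selumetinib and 3 for the interaction. In NOMO1 they were 11 higher for VTP-50469 day 3, 19 higher for selumetinib, 24 higher for combination day 3 and 7 lower for the interaction. The medians became -0.28 for VTP-50469 day 3 and 0.27 for selumetinib (0.61 with DMSO day 3) in OCI-AML3, and for VTP-50469 day 3, selumetinib, combination day 3 and the interaction 0.59, 0.91, 1.06 and -0.49 in NOMO1.

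In NOMO1, named genes turned with that control too. For VTP-50469 day 3 they were MT-RNR1 0.59, MT-RNR2 0.15, MT-CO1 0.45, MT-CO3 0.90, MT-CYB 1.39, MT-ND3 1.19, MT-ND4 0.35 and MT-ND6 0.18. For selumetinib they were MT-RNR1 0.87, MT-RNR2 0.63, MT-CO1 0.79, MT-CO3 1.09, MT-CYB 1.47, MT-ND3 1.17, MT-ND4 0.76 and MT-ND6 0.57. For combination day 3 they were MT-RNR1 0.94, MT-RNR2 0.90, MT-CO1 1.06, MT-CO3 1.06, MT-CYB 1.40, MT-ND3 1.144, MT-ND4 0.98 and MT-ND6 0.84. For the interaction they were MT-RNR1 -0.52, MT-CO1 -0.18, MT-CO3 -0.92, MT-CYB -1.46, MT-ND3 -1.22 and MT-ND4 -0.13.

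DESeq2 called 5 genes for OCI-AML3 VTP-50469 day 6, 5 for combination day 3 against selumetinib and 3 for the interaction. Library totals without factors gave 6, 5 and, in NOMO1 combination day 6, 6 (2 higher and 4 lower). Without factors the median of all genes against DMSO day 3 moved to 0.33, 0.39 and 0.39 for NOMO1 combination day 3, VTP-50469 day 3 and selumetinib. For OCI-AML3 combination day 3 it moved to 0.16. With no low-count filter the counts were 5 for OCI-AML3 VTP-50469 day 6 against day 3, 1 for NOMO1 combination day 3 against selumetinib and 11 for the line difference of VTP-50469. With only the groups compared in the fit they were 3 (1 higher, 2 lower) for OCI-AML3 VTP-50469 day 6, 12 for combination day 3 against selumetinib and 2 for the interaction. In NOMO1 they were then 5 (2 higher, 3 lower) for combination day 6, 5 for combination against VTP-50469 at day 6 and 2 for combination day 3 against selumetinib, and 13 between the lines in DMSO day 6. Scaling to nuclear genes only gave 1 for the line difference of VTP-50469. The causes were not tested.

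Replicate numbers did not pair the libraries: mean correlations of same-numbered libraries were -0.0123 to 0.0027 in OCI-AML3 and -0.00513 to 0.00173 in NOMO1. With the number as a replicate block, NOMO1 combination against VTP-50469 at day 6 had 1 call in place of 3, the line difference of VTP-50469 had 1 in place of 2, and the other 26 counts stayed within 1.5 times.

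Leaving out 1 library at a time gave these ranges of calls in OCI-AML3: VTP-50469 1 to 1 at day 3 and 2 to 5 at day 6, selumetinib 8 to 15, combination 18 to 21 and 22 to 25, combination against VTP-50469 19 to 24 and 20 to 24, against selumetinib 2 to 3, interaction 1 to 3, and day 6 against day 3 0 to 0 in DMSO, 2 to 14 with VTP-50469 and 17 to 20 with the combination. In NOMO1 they were VTP-50469 27 to 29 and 1 to 4, selumetinib 27 to 29, combination 25 to 28 and 3 to 7, combination against VTP-50469 8 to 12 and 0 to 2, against selumetinib 0 to 2, interaction 26 to 28, and day 6 against day 3 28 to 31, 11 to 15 and 21 to 24. Between lines they were 13 to 17 in DMSO day 6, 1 to 2 for VTP-50469, 21 to 24 for the combination and 24 to 26 for selumetinib. The median between lines in DMSO day 6 ran from -0.44 to 0.084, turning to 0.084 without OCI-AML3 DMSO day 6 replicate 3. Of the tRNA genes, 2 in OCI-AML3 and 6 in NOMO1 had too few counts to test.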
